A study of Homo sapiens with 2 samples.

Results

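RNA polymerases I, II and III are built from the products of the 31 genes described here, which are defined by name and not by a measured value. All 31 were found by their current symbols among the 57736 genes listed, including POLR1F, POLR1G and POLR1H, formerly TWISTNB, CD3EAP and ZNRD1. A level of at least 1 TPM (a transcript level scaled to its length and to a fixed total per library) in both libraries was found for 30 of them, against 26.3% of all listed genes and 63.8% of protein-coding genes. The exception was POLR2J2, at 0.50 TPM in replicate 1 and 6.14 in replicate 2. Across the members the median was 50.3 TPM, and 27 of the 31 lay above 18.6 TPM, the median of the protein-coding genes that passed the same limit.

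The cells were HEK293T, a line derived from human embryonic kidney that expresses SV40 large T antigen, with a wild type genotype in the labels. By the labels they were heated for 20 min at 43 °C, where the paper describes a longer heat step, and kept for 6 h at 37 °C. They were lysed separately for replicate 1 and replicate 2, and their poly(A)+ RNA was sequenced with 50 bp reads. This was the 1 group of the series, and untreated cells are not analysed here, so no value below is a change with heat shock. Every p-value measures only the spread between these 2 libraries. In RNA from whole cultures, fewer cells with a transcript and less of it per cell cannot be told apart.

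RNA polymerase I transcribes the ribosomal RNA precursor in the nucleolus, RNA polymerase II transcribes messenger RNA, and RNA polymerase III transcribes transfer RNA and other short RNAs. Each enzyme has its own pair of largest subunits, which form the active site, and its own peripheral subunits. A set of small common subunits belongs to all of these enzymes, and an alpha-like pair, the assembly platform of the core, is shared by RNA polymerases I and III.

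Replicate 1 held 22529828 expected counts and replicate 2 held 26890199, of which the members took 0.320% and 0.295%. Of the kidney epithelial markers, 5 of 10 were detected, with KRT18 at 52.6 TPM, while CDH16 and UMOD were listed at 0. Of the neuronal or adrenal markers, 4 of the 7 matched were detected, with UCHL1 at 382 TPM and TH listed at 0. Of the blood, endothelial and fibroblast markers, 1 of the 6 matched was detected, COL1A1 at 22.5 TPM, and PTPRC and CD3E were listed at 0.

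The first comparison asked how the shared subunits stood against those of a single polymerase. The 7 shared subunits had a median of 101.9 TPM and the 24 specific members one of 41.0 TPM. In replicate 1 the medians were 105.5 and 37.8 TPM, a ratio of 2.79, and in replicate 2 they were 98.3 and 39.6 TPM, a ratio of 2.48. Each of the 7 shared subunits lay above the median of the specific members, and 4 specific members lay above the lowest shared subunit. Members are not replicates of a condition, so these medians were not tested.

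The 5 subunits common to all polymerases had the highest class median, 150.5 TPM. POLR2E, the largest of the common subunits, had the highest mean of all members, at 452 TPM in replicate 1 and 386 in replicate 2. POLR2L, a small zinc-binding subunit, stood at 301 and 229 TPM, and the opposite-strand gene CD151 overlapped 22.8% of its exonic bases. POLR2F, which binds near the clamp, stood at 166.5 and 134.6 TPM. All of these were lower in replicate 2, and their deposited credibility intervals (the range in which the authors' quantifier placed a level) did not overlap between the libraries. That was so for 10 of the 31 members, against 30.4% of genes whose summed count reached 100. POLR2K, a further zinc-binding subunit, had 82.5 and 87.8 TPM, and POLR2H had 70.5 and 70.8 TPM. The common subunits are part of the same enzymes, yet their mRNA levels differed 5.93-fold between POLR2E and POLR2H. POLR1D, the smaller subunit of the alpha-like pair of RNA polymerases I and III, had 105.5 and 98.3 TPM. Its partner POLR1C had 68.2 and 62.3 TPM, and POLR1D was above it 1.55-fold in replicate 1 and 1.58-fold in replicate 2.

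**Figure D1:**
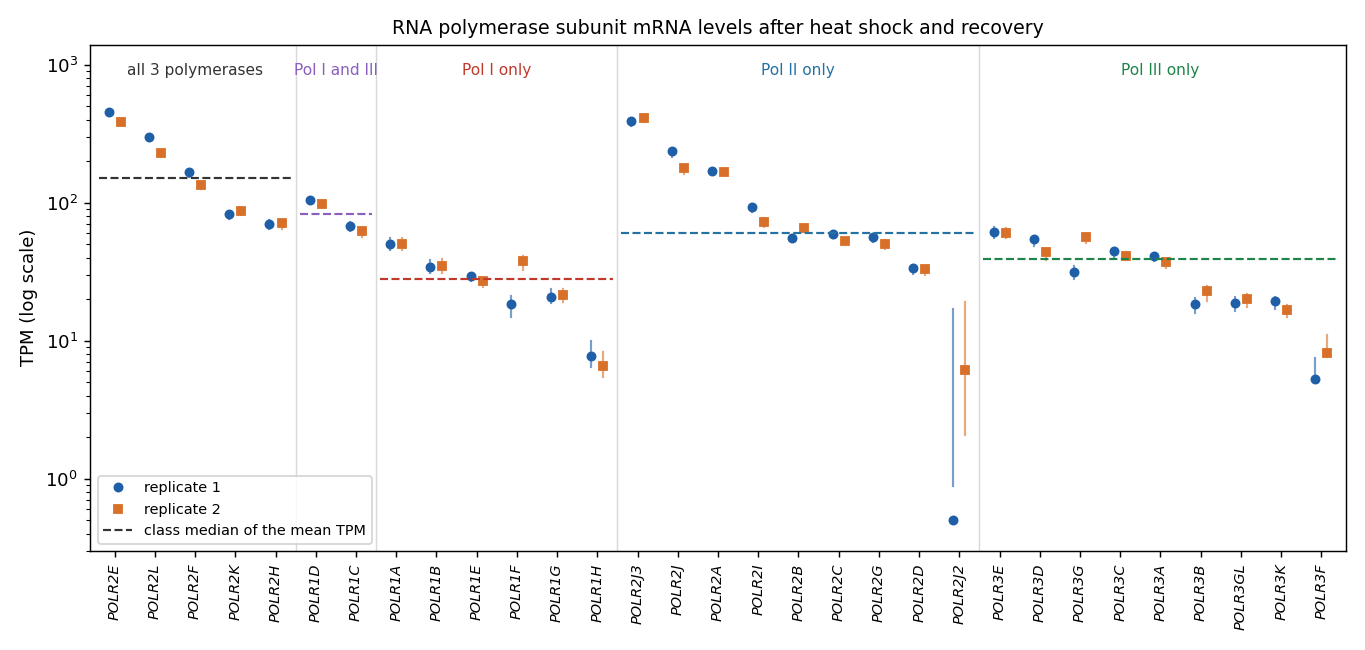
TPM on a log axis of the 31 members in replicate 1 (circles) and replicate 2 (squares), with vertical lines for the deposited credibility intervals and dashed lines for the median of each class. The class of subunits common to all 3 polymerases has the highest median, 150.5 TPM, and the subunits of RNA polymerase I alone the lowest, 28.2 TPM, while POLR2J2 has by far the widest interval for its level.

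RNA polymerase I had 6 subunits of its own, with a median of 28.2 TPM, the lowest of the 5 classes. POLR1A, its largest subunit, had 50.1 TPM in replicate 1 and 50.6 in replicate 2. POLR1B, which completes the active site, had 34.2 and 34.6 TPM. These levels were almost equal in the libraries, with an SD of 0.37 TPM for POLR1A and 0.30 TPM for POLR1B (n = 2). POLR1E and POLR1G form a heterodimer related to the initiation factor TFIIF, and they stood at 29.6 and 26.9 TPM and at 20.7 and 21.4 TPM, respectively. POLR1F, a stalk subunit on the surface that meets the initiation factor RRN3, had 18.4 and 37.9 TPM, the widest difference among members of this class. POLR1H, a zinc ribbon subunit involved in RNA cleavage, was the lowest of the class at 7.78 and 6.56 TPM. Its transcripts overlapped those of the opposite-strand gene POLR1HASP over 24.5% of their exonic bases. No label or method text used here says whether the counting kept strands apart. The posterior SDs of the counts, the quantifier's own uncertainty, nearly matched in this pair. They were 5.26 for POLR1H and 5.35 for POLR1HASP in replicate 1, and 6.44 and 6.45 in replicate 2. For POLR1G the overlap was 49.8%, with the opposite-strand DNA repair gene ERCC1, which had 53.1 and 46.1 TPM, so the POLR1G value is uncertain. POLR1G and ERCC1 also had matching posterior SDs, 20.1 each in replicate 1 and 24.0 each in replicate 2. Reads thus appear to have been divided between the opposite-strand genes of these pairs. POLR1C overlapped a same-strand gene, ENSG00000271970, over 37.4% of its exonic bases, but that gene was listed at 0 in both libraries.

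RNA polymerase II had 9 genes of its own, with a median of 60.7 TPM. POLR2A, the largest subunit, which carries the C-terminal repeat domain, is on chromosome 17 at 7387685 to 7417933 in GRCh37. It had 170.5 TPM in replicate 1 and 167.1 in replicate 2. POLR2B, the partner of POLR2A in the active site, was lower, at 55.6 and 65.7 TPM. The ratio of POLR2A to POLR2B was 3.07 and 2.54, while that of POLR1A to POLR1B was 1.46 in both libraries and that of POLR3A to POLR3B was 2.25 and 1.62. POLR2I, the zinc ribbon subunit, had 93.9 and 73.0 TPM. Opposite-strand genes, mainly TBCB at 75.25 and 57.59 TPM, overlapped 19.3% of its exonic bases. POLR2C, the larger alpha-like subunit, had 59.3 and 52.7 TPM. The stalk subunits POLR2G and POLR2D, which bind to the core as a heterodimer, had 56.6 and 50.5 TPM and 33.5 and 33.0 TPM. POLR2G was thus above POLR2D by 1.69-fold and 1.53-fold.

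RNA polymerase III had 9 genes of its own, with a median of 39.2 TPM. POLR3A, its largest subunit, had 41.4 and 37.0 TPM, and POLR3B, the second, had 18.4 and 22.8 TPM. POLR3E and POLR3D, the heterodimer related to TFIIF, had the highest means of this class, at 61.8 and 60.6 TPM and at 54.3 and 43.95 TPM. Both lay above POLR3A and POLR3B, the catalytic pair, in each library, while POLR3G, at 56.0 TPM, was above POLR3D in replicate 2. Of the heterotrimer related to TFIIE, which takes part in promoter opening, POLR3C had 44.4 and 41.3 TPM. POLR3F had only 5.31 and 8.10 TPM, the lowest level in RNA polymerase III, although POLR3C, its partner in the same subcomplex, was above it by 8.37-fold and 5.10-fold. POLR3K, the zinc ribbon subunit, had 19.4 and 16.8 TPM. CRCP, a stalk subunit that is not among the 31, had 28.1 and 26.4 TPM.

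Within each enzyme, subunits that are built into 1 complex thus had very unequal mRNA levels. In RNA polymerase I the highest subunit was above the lowest by 58.5-fold, POLR2E against POLR1H. In RNA polymerase III the corresponding span was 62.5-fold, POLR2E against POLR3F, with 85.1-fold in replicate 1 and 47.7-fold in replicate 2. In RNA polymerase II it was 126-fold with POLR2J2 as the lowest gene, but that figure rested on replicate 1, with 904-fold there and 67.4-fold in replicate 2. With the POLR2J genes summed as 1 subunit, the span in RNA polymerase II was 18.5-fold, from POLR2D to the POLR2J family. POLR2E, the top of the spans in RNA polymerases I and III, is shared by all 3 enzymes. Among the subunits of RNA polymerase I alone, mean levels ran from 7.17 TPM for POLR1H to 50.3 TPM for POLR1A. Among those of RNA polymerase III alone, they ran from 6.7 TPM for POLR3F to 61.2 TPM for POLR3E. The 30 neighbouring pairs in the order of mean levels were mostly not separated. In 12 of them both libraries of the higher gene exceeded both libraries of the next. In the middle of the order, from POLR3E at 61.2 TPM down to POLR3A at 39.2 TPM, no neighbours were separated.

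Matching subunits were then set side by side across the polymerases. POLR2A exceeded POLR1A 3.41-fold and 3.30-fold, and POLR3A 4.12-fold and 4.52-fold. POLR1A was in turn above POLR3A in both libraries. POLR2B exceeded POLR1B by 1.63-fold and 1.90-fold, and POLR3B by 3.03-fold and 2.88-fold. The second largest subunits therefore had the same order as the largest, with RNA polymerase II first and RNA polymerase III last. Among the zinc ribbon subunits, POLR2I exceeded POLR3K by 4.84-fold and 4.34-fold and POLR1H by 12.1-fold and 11.1-fold. Both POLR2I and POLR1H overlap opposite-strand genes, which limits the latter comparison. The smaller alpha-like subunit of RNA polymerase II, POLR2J, exceeded the larger one, POLR2C, 4.0-fold and 3.37-fold, but the value of POLR2J depends on how reads were divided among its paralogs. A lead of RNA polymerase II did not hold for the larger alpha-like subunit, where POLR2C, at 59.3 and 52.7 TPM, was below POLR1C, at 68.2 and 62.3 TPM.

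**Figure D2:**
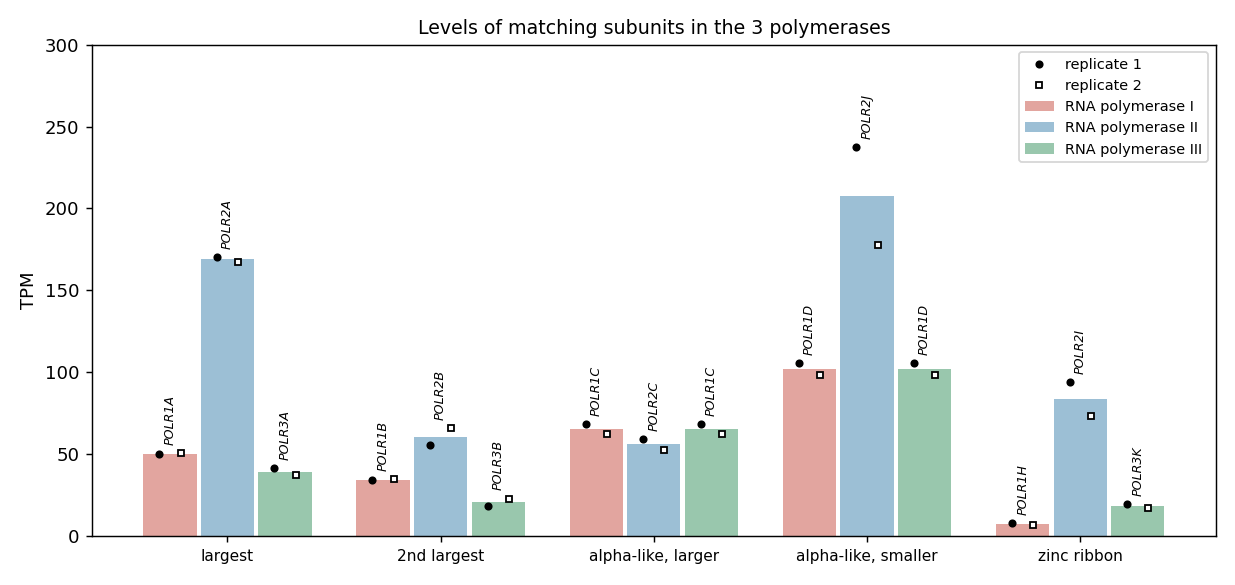
TPM of matching subunits of RNA polymerase I, II and III, with bars for the mean of the libraries from 0 and points for replicate 1 and replicate 2. POLR1C and POLR1D are drawn for both RNA polymerases I and III, which share them. RNA polymerase II leads in 4 of the 5 positions in both libraries, as for the largest subunit, where POLR2A has 168.8 TPM against 50.3 TPM for POLR1A. The value of POLR2J depends on how reads were divided among its paralogs, and POLR2I and POLR1H overlap opposite-strand genes.

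POLR2J, POLR2J2 and POLR2J3 lie near each other on the minus strand of chromosome 7, and a further copy, POLR2J4, lies elsewhere on the same chromosome. POLR2J encodes the smaller alpha-like subunit, and the others are copies of the gene. In GRCh37, POLR2J is at 102113575 to 102119369, POLR2J3 at 102178365 to 102213100 and POLR2J2 at 102305815 to 102312110. The second exon, of 90 bases in the reference transcripts used, is a stretch where little separates any of them. It is printed 5′ to 3′ on the coding strand with capitals at the bases that differ from POLR2J.
POLR2J, chr7:102116628-102116717: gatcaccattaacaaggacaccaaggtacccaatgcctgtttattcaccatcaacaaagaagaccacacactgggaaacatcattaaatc
POLR2J3, chr7:102210282-102210371: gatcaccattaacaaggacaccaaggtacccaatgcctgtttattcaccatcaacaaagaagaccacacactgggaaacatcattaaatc
POLR2J4, chr7:44056033-44056122: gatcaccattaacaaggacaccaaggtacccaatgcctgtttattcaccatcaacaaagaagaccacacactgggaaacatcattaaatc
POLR2J2, chr7:102309362-102309451: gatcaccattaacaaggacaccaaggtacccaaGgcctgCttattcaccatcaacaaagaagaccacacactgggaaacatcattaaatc

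Over this exon POLR2J, POLR2J3 and POLR2J4 were identical, and POLR2J2 differed by 2 substitutions, T34G and T40C, counted from the 5′ end of the exon with the POLR2J base first. A read made up of bases that these genes share cannot be assigned to 1 of them. In POLR2J, POLR2J2 and POLR2J3 the coding part of exon 1 was also identical over its first 50 bases. POLR2J2 and POLR2J3 ended it there, and POLR2J continued to 53 bases, as follows.
POLR2J, chr7:102119255-102119307: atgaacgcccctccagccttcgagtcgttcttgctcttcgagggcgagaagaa
POLR2J3, chr7:102212919-102212968: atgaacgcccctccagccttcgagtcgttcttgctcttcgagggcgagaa

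The ends of the coding sequence, in contrast, differed from the first base, which is what a read can use to tell POLR2J from POLR2J2. The coding part of exon 4 had 33 bases in POLR2J and 30 in the POLR2J2 transcript.
POLR2J, chr7:102114099-102114131: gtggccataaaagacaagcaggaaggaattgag
POLR2J2, chr7:102306581-102306610: acgtgcctgcttccccttcgccttctgccg

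Over all reference transcripts, 66.7% of the 50-base sequences of POLR2J were found in no other gene, 53.6% of those of POLR2J3 and 4.77% of those of POLR2J2. POLR2J3 held 90.2% of the 50-base sequences of POLR2J2 but only 28.2% of those of POLR2J. For 24 of the 31 members, at least 90% of these sequences were in no other gene. Below 80% were 6 members, the POLR2J genes together with POLR1C, POLR1G and POLR1H.

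Reads were divided unequally in the POLR2J family. POLR2J3 had 394 TPM in replicate 1 and 414 in replicate 2, POLR2J had 237 and 178, and POLR2J2 had 0.50 and 6.14. The deposited intervals for POLR2J2 ran from 0.88 to 17 TPM in replicate 1 and from 2.09 to 19.2 TPM in replicate 2, and the former did not include the deposited level of 0.50 TPM. POLR2J2 was given 11.3 expected counts with a posterior SD of 43.0 in replicate 1 and 95.1 with a posterior SD of 53.0 in replicate 2. The posterior SD exceeded the count in replicate 1, and the level of POLR2J2 is uncertain in both libraries. It was the only member with a posterior SD over 10% of its count, a limit passed by 3.83% of genes whose summed count reached 100. In the authors' pooled table POLR2J2 had 136.7 counts. POLR2J made up 37.5% of the summed TPM of the 3 genes in replicate 1 and 29.7% in replicate 2, or 33.6% ± 5.54 (SD, n = 2). The family as a whole moved less, with 632 and 598 TPM. A gene that overlaps POLR2J2 on the same strand, ENSG00000267645, had 49.5 and 49.0 TPM, although 0% of its 50-base sequences were its own and 84.5% were in POLR2J3. POLR2J4 had 8.13 and 8.37 TPM.

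**Figure D3:**
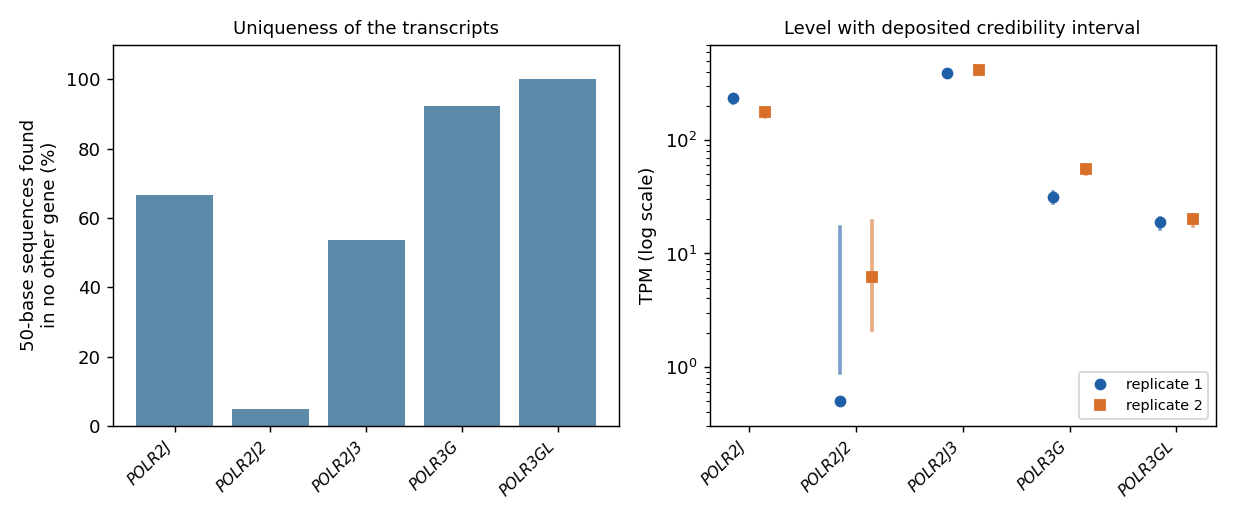
Left, the percentage of 50-base transcript sequences found in no other gene for the POLR2J and POLR3G paralogs. Right, their TPM on a log axis in replicate 1 (circles) and replicate 2 (squares) with the deposited credibility intervals. POLR2J2, with 4.77% of such sequences, has intervals that reach from 0.88 to 17 TPM in replicate 1, while those of POLR3G and POLR3GL are narrow.

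POLR3G and POLR3GL encode alternative forms of 1 subunit of the heterotrimer of RNA polymerase III. POLR3G is known for its expression in pluripotent and transformed cells, and POLR3GL is the more widely expressed form. They shared 0 50-base sequences, so their reads could be separated. POLR3G (chromosome 5, 89767565 to 89810374) had 31.7 TPM in replicate 1 and 56.0 in replicate 2, and POLR3GL (chromosome 1, 145456236 to 145470400) had 18.8 and 20.2 TPM. POLR3G was the higher form in both libraries, at 62.7% and 73.5% of the summed level. The log2 ratio of POLR3GL over POLR3G was -0.75 in replicate 1 and -1.47 in replicate 2, a mean of -1.11 ± 0.51 (SD, n = 2). With 2 libraries an exact two-sided test of this ratio against 0 cannot give a p below 0.5, so it was not tested. The difference lay mainly in POLR3G, whose expected count was 487 in replicate 1 and 1114 in replicate 2, while that of POLR3GL was 328 and 395.

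The remaining question was how far the members differed between the replicates beyond counting noise. Ratios were scaled by TMM factors, which set the typical gene of the libraries equal. An exact binomial test on the counts of each gene, two-sided and adjusted over 19714 genes, called 25 of the 31 members at the threshold of 0.05, against 43.1% of all genes tested. Of these, 20 were higher in replicate 1, a direction called in 22.2% of all genes, and 5 were higher in replicate 2, called in 20.9%. The members were deeply counted, so they were also set against genes with 1000 or more summed counts, a limit chosen after seeing the data. In that range 22 of 26 members were called against 72.5% of genes, and 19 were higher in replicate 1 against 42.9%. Over the members the log2 ratio of replicate 2 to replicate 1 had a median of -0.17, against -0.0011 over all genes tested. These differences were small, and 27 of the 31 members lay within 1.5-fold between the libraries in TPM. By TPM, which is scaled differently and also takes account of length, 18 were higher in replicate 1 and 13 in replicate 2. POLR1A, for example, had a log2 ratio of -0.20 by TMM-scaled count and 50.1 and 50.6 TPM.

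The members higher in replicate 2 were POLR2J2, POLR1F, POLR3G, POLR3F and POLR2B. POLR1F (chromosome 7, 19735084 to 19748660) had 634 counts in replicate 1 and 1651 in replicate 2, a log2 ratio of 1.08 with an adjusted p of 3.8e-61 by the exact binomial test. POLR1F and POLR2J2 were the 2 members with an absolute log2 ratio of at least 1, against 3.66% of genes whose summed count reached 100. POLR3G had a log2 ratio of 0.89 and an adjusted p of 2.0e-30 by the same exact test. POLR2J2 had the largest value, 2.75, on few and uncertain counts. POLR3F had a log2 ratio of 0.42 and POLR2B one of 0.11. In the other direction, POLR2L had the largest ratio at -0.52, followed by POLR2J at -0.52, POLR2I at -0.45, POLR2F at -0.40 and POLR2E at -0.37. The 6 members that did not pass were POLR2J3, POLR2K, POLR1G, POLR1H, POLR3B and POLR3GL, with log2 ratios from -0.17 to -0.03. An edgeR exact test that assumed a biological coefficient of variation of 0.1 left 3 members, POLR2J2, POLR1F and POLR3G, all higher in replicate 2, against 7.24% of all genes. The coefficient that edgeR estimated from these libraries was larger, 0.200.

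The GC content of the transcripts moved with these ratios. It was taken over all reference transcripts of a gene together, whether or not they were expressed, and may differ from that of the RNA sequenced. Over 13642 genes whose summed count reached 100, Spearman's rho between the log2 ratio and GC content was -0.72, and over the 31 members it was -0.56, values across genes that share the same libraries and are given as a description. POLR3G, POLR1F and POLR3F had GC contents of 36.3%, 37.3% and 40.4%, and POLR2E, POLR2L and POLR2I had 62.3%, 61.2% and 60.9%. Of the 13 members below the median GC content of all these genes, 49.0%, 4 were higher in replicate 2, against 1 of the 18 above it. Among all genes whose summed count reached 100, the corresponding shares were 49.5% and 3.23%, so the split was also present over all genes. With the median trend over all genes removed, the log2 ratio of POLR3G was 0.03 (adjusted p = 0.86, exact binomial test), that of POLR3F 0.03 and that of POLR1F 0.34 (adjusted p = 2.8e-06, exact binomial test). With that trend removed 21 members were called, 17 of them higher in replicate 1, against 26.7% and 13.2% of all genes, and the median was -0.13. POLR2B and POLR2A took the opposite sign, with 0.05 for POLR2A and -0.13 for POLR2B. POLR2K stood apart, since its transcripts had the lowest GC content of all members, 35.9%, and its log2 ratio was -0.03 before and -0.94 after the trend was removed. The part of GC content in the ratios of single members was not tested beyond these values.

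**Figure D4:**
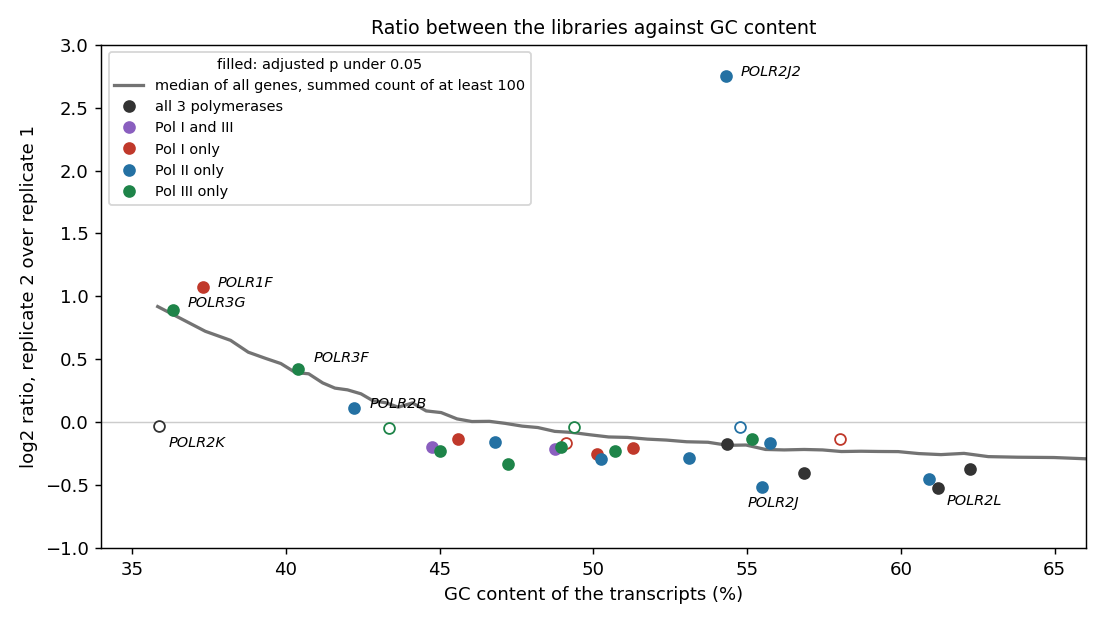
Log2 ratio of replicate 2 over replicate 1 of the 31 members against the GC content of their transcripts in percent, coloured by class, with filled points for those called by the exact binomial test. The line is the median of all genes whose summed count reached 100. POLR3G and POLR3F lie near the line, POLR1F lies above it, and POLR2K, at 35.9% GC, lies far below it.

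The factors that recruit, regulate and assemble the polymerases were read from lists of further genes, and all 64 that were matched passed the limit of 1 TPM in both libraries. The highest and lowest of each list are given by mean level, and calls are to be read against 20.9% of all genes called higher in replicate 2 and 22.2% higher in replicate 1, or 13.5% and 13.2% with the GC trend removed. Of the 9 factors of RNA polymerase I, TAF1D had 109 and 202 TPM, TOP1, a topoisomerase that relieves supercoils, had 101 and 140 TPM, and UBTF, which binds the ribosomal DNA, had 112 and 105 TPM. TAF1A, a subunit of the promoter selectivity factor, was the lowest at 5.45 and 8.03 TPM. In this list 5 genes were called higher in replicate 2 and 1 higher in replicate 1, or 3 and 0 with the GC trend removed, and the largest ratio was that of TAF1D at 0.77, which became 0.06 with the GC trend removed. Of the 20 general factors of RNA polymerase II, GTF2F1, a subunit of TFIIF, had 184 and 168 TPM, TCEA1, an elongation factor, had 101 and 138 TPM, and GTF2A2, a subunit of TFIIA, had 92.1 and 102.4 TPM. GTF2H5, the smallest subunit of TFIIH, was the lowest at 2.06 and 2.76 TPM. Here 11 were called higher in replicate 2 and 3 higher in replicate 1, or 3 and 2 with the GC trend removed. The largest ratio was that of CCNH, the cyclin of the TFIIH kinase, at 0.96, which became 0.54 with the GC trend removed.

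Of the 17 factors of RNA polymerase III, SSB, the La protein that binds new transcripts, had 135 and 276 TPM, GTF3A, which recognises the internal promoter of the smallest ribosomal RNA gene, had 185 and 184 TPM, and GTF3C5, a subunit of TFIIIC, had 140 and 122 TPM. SNAPC1, a subunit of the small nuclear RNA activating complex, had the lowest mean, at 2.47 and 5.55 TPM, although BRF2, a subunit of a TFIIIB variant, was lower in replicate 2 at 4.78 TPM. In this list 5 were called higher in replicate 2 and 7 higher in replicate 1, or 3 and 4 with the GC trend removed. BDP1, a subunit of TFIIIB, had the largest ratio, with 8.74 and 32.9 TPM, a log2 ratio of 1.79 that was still 1.18 with the GC trend removed. Of the 16 matched factors of polymerase assembly and import, RUVBL2 had 182 and 144 TPM, its partner ATPase RUVBL1 had 150 and 138 TPM, and the co-chaperone subunit PIH1D1 had 102 and 89.3 TPM. GPN3, a small GTPase, had the lowest mean, at 8.11 and 9.18 TPM, although PDRG1 was lower in replicate 2 at 8.65 TPM. Here 4 were called higher in replicate 2 and 7 higher in replicate 1, or 3 and 3 with the GC trend removed, with the largest ratio in RPAP2, a phosphatase of the C-terminal domain, at 1.12. Of 3 further polymerase genes, CRCP and POLRMT, the mitochondrial RNA polymerase at 45.1 and 33.8 TPM, were called higher in replicate 1 and POLR2J4 was not called. The median log2 ratio was 0.32 for the factors of RNA polymerase I, 0.18 for the general factors of RNA polymerase II, -0.10 for the factors of RNA polymerase III, -0.17 for the assembly factors and -0.27 for the further polymerase genes, beside -0.17 for the members. With the GC trend removed these lists had 0.06, -0.05, 0.0023, -0.05 and -0.07, beside -0.13 for the members, and the differences between lists were not tested.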

How the data were processed

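Poly(A)+ RNA of 2 libraries of 1 group was sequenced on a HiSeq instrument. The submitters' processing notes list Trimmomatic 0.36, STAR 2.6.1c and RSEM 1.3.1 with GRCh37, whereas the methods name featureCounts for genes of that build. The deposited tables have the columns that RSEM writes. Each expected count was deposited by the authors after multi-mapped reads were shared among genes, which can move reads between paralogs. The deposited TPM of a gene takes account of its length and has a fixed total. The deposited FPKM takes account of length and library reads, and served as an alternative. Posterior SDs, credibility bounds and a pooled table of the series were also read. The pooled table was read as the authors' values, with the posterior SDs given there and no spread between libraries.

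The members are defined by gene name, and they and the gene lists were chosen with earlier results of these data known. Names were matched to a GENCODE annotation of GRCh37, which held 96.1% of the listed identifiers, and WDR92, NEFL and PECAM1 were not matched. Shared sequences were identical 50-base stretches of reference transcripts, and 93.1% of the listed transcripts were found there. Printed sequences were cut from the GRCh37 reference transcripts by their exon coordinates. Expected counts were rounded for the binomial test, which was conditional on the summed count, used TMM factors from edgeR 4.0.16 and was adjusted by Benjamini-Hochberg over genes whose summed count reached 10. Log2 ratios had a pseudocount of 0.5 count. A quasi-likelihood test was not run, since 1 group gives no contrast. The GC trend was the median in 50 classes of genes. The test was checked on simulated counts. Python 3.11.15, R 4.3.3, scipy 1.17.1, pandas 2.3.3 and DESeq2 1.42.0 were used. Every member is named. Of each other list the 3 highest genes, the lowest and the one of largest ratio among those with 100 or more summed counts are named, with CRCP and POLR2J4. A further gene of the lists is not reported here. Marker genes, ERCC1, POLR1HASP, CD151, TBCB, ENSG00000267645, ENSG00000271970, BRF2, PDRG1 and POLRMT were named after their values were seen. Alternatives were other detection limits, units, scalings, count minimums and tests, the sum of paralogs, and each replicate alone. A limit of 1000 summed counts and a split at the median GC content were added after seeing the data.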

Additional observations from a re-analysis of the deposited data

How the results depend on the processing

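With FPKM in place of TPM the class medians fell to 22.2 for RNA polymerase I alone, 66.2 for RNA polymerases I and III, 119.3 for all 3, 47.9 for RNA polymerase II alone and 31.01 for RNA polymerase III alone, in the same order, because the units have different totals. Without POLR2J2, the member that was not detected, the median of RNA polymerase II alone was 72.1 TPM. Leaving out 1 replicate, it ranged from 59.3 to 65.7 TPM and that of RNA polymerase III alone from 31.7 to 37.0 TPM. The span within RNA polymerase I was 54.2-fold with posterior mean TPM, and that within RNA polymerase II ranged from 67.4-fold to 904-fold when 1 replicate was left out. The edgeR exact test called 3 members and 8 genes of the other lists, and removal of the GC trend called 22 genes of the other lists, against 25 and 45. With the GC trend removed the log2 ratio changed sign for POLR2A (0.051), POLR2B (-0.13), POLR2H (0.0088), POLR2J3 (0.15) and POLR3E (0.058), and for POLR1G (0.10) and POLR3GL (0.047), which were called in neither case. The DESeq2 size factors gave 24 members, against 43.0% of all genes, and the library totals 21, against 41.5%, a scaling that moved every ratio by 0.048. No paired analysis was possible because both libraries belong to 1 group. Apart from POLR2J2, every member had at least 100 expected counts in each library, and 24 members had a posterior SD under 1% of the count. Depth, shared sequence and the spread of 2 libraries each limit the values, and which limits most was not tested.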
